A study of Mus musculus with 20 samples.

Results

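The genes described are Pfkfb1, Pfkfb2, Pfkfb3 and Pfkfb4, the 4 mouse isoforms of 6-phosphofructo-2-kinase/fructose-2,6-bisphosphatase, and Tigar, a phosphatase related in fold to their bisphosphatase domain. They were taken by gene symbol and are 5 of the 43629 genes in the count table, with 1 row each. RNA was sequenced from spinal cord nuclei separated by flow cytometry with NeuN, an RNA-binding protein in the nuclei of neurons, encoded by Rbfox3. The 4 groups of 5 libraries were NeuN-positive nuclei of mice with experimental autoimmune encephalomyelitis (EAE), NeuN-positive nuclei of healthy mice, NeuN-negative nuclei of mice with EAE, and NeuN-negative nuclei of healthy mice. EAE, a T cell-driven inflammation of brain and spinal cord that serves as a mouse model of multiple sclerosis, was induced here by active immunization, with nuclei taken at day 15. The strain, age and immunogen of the mice, and whether each library is 1 mouse, are not stated in the labels, so p-values measure the spread between these libraries, which may be technical. The title of the series names immunoproteasomes and neuronal metabolism, and the comparison asked of these genes is whether their transcripts differ with EAE in neurons and in other cells.

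The PFKFB enzymes make and break fructose-2,6-bisphosphate, the strongest allosteric activator of phosphofructokinase-1, which carries out the committed step of glycolysis. Each isoform carries a kinase and a bisphosphatase domain in 1 protein and differs in which activity dominates, with Pfkfb3 strongly biased to the kinase. Tigar, a p53 target first described in human cells, removes phosphate from fructose-2,6-bisphosphate and related sugar phosphates and so favours the pentose phosphate pathway. In neurons, PFKFB3 protein is kept low by the APC/C-Cdh1 ubiquitin ligase and the proteasome, while astrocytes keep more of it. The data are transcript counts of nuclei and hold no measure of protein.

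Total counts per library were 7072200 to 18686997 in EAE and 12076860 to 30499828 in healthy NeuN-positive nuclei, and 3149209 to 15525441 in EAE and 8336330 to 37689267 in healthy NeuN-negative nuclei. Rbfox3 was higher in NeuN-positive than NeuN-negative nuclei, at 203 ± 73.2 against 27.2 ± 13.2 CPM (counts scaled to the effective size of the library) in EAE and 329 ± 35.9 against 29.5 ± 11.0 CPM in healthy mice (mean ± SD, n = 5), which fits the sort. Libraries stood apart in their share of mitochondrially encoded counts, RNA made outside the nucleus, which was 1.08 to 9.35% in EAE and 0.197 to 3.003% in healthy NeuN-positive libraries, and 2.18 to 14.6% in EAE and 0.367 to 4.51% in healthy NeuN-negative libraries. The 6 libraries numbered EAE 2, EAE 4 and healthy 3, whose NeuN-positive library held over 2%, were also left out. Results without them are given where a call of the 5 genes changed, and for the other lists only in part. This choice goes by the NeuN-positive library. It removed the NeuN-negative libraries of highest share, EAE 2 at 14.6%, EAE 4 at 9.83% and healthy 3 at 4.51%. EAE NeuN-negative 1 at 4.87% and 5 at 7.94% stayed in, although they lay above healthy NeuN-negative 3. The EAE NeuN-negative libraries kept, at 2.18 to 7.94%, all lay above the healthy ones kept, at 0.367 to 2.03%. Libraries also differed in the counts of Gm10800 and Gm10801. These 2 genes held 1.67 to 23.6% of EAE and 0.167 to 2.84% of healthy NeuN-negative libraries. They took 23.6, 13.75 and 5.93% in EAE NeuN-negative 2, 4 and 5. With these and the mitochondrial genes removed, 0 of the 5 genes were called higher and 2 lower with EAE in NeuN-negative nuclei. In such bulk libraries, fewer nuclei of a type and less RNA per nucleus cannot be told apart.

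On GRCm38 with the GENCODE M21 annotation, Pfkfb1 (ENSMUSG00000025271) lies on chrX:150588229-150643878 on the plus strand. Pfkfb2 (ENSMUSG00000026409) lies on chr1:130689182-130729253 and Pfkfb3 (ENSMUSG00000026773) on chr2:11471433-11554077, both on the minus strand. Pfkfb4 (ENSMUSG00000025648) lies on chr9:108991778-109032228 on the plus strand and Tigar (ENSMUSG00000038028) on chr6:127085116-127109557 on the minus strand. Their joined exons span 4017 bases (Pfkfb1), 7254 bases (Pfkfb2), 7561 bases (Pfkfb3), 4875 bases (Pfkfb4) and 3658 bases (Tigar). Exons of Pfkfb2 share 1262 bases with the predicted gene Gm29427 on the same strand and 154 bases with Yod1. Pfkfb1 shares 123 bases with Apex2, and Tigar shares 122 bases with the antisense gene Platr31. The use of strand in counting is not given, so reads in these stretches could belong to either gene.

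All 5 genes matched the RefSeq promoter table for GRCm38.p6, with 11 start sites among them. The 250 bases before each start were searched on both strands for ACGTG and GCGTG, the core letters bound by hypoxia-inducible factors, since hypoxia is a known inducer of PFKFB genes. A palindromic CACGTG counts once on each strand. Of the 32851 RefSeq windows of this length used here, which do not cover every chromosome, 16.6% hold ACGTG, 28.2% hold GCGTG and 38.6% hold either. The windows shown are the Pfkfb2 window with the most matches of its 3, both Pfkfb3 windows and the Pfkfb4 window, because Pfkfb2 and Pfkfb4 were both lower with EAE in NeuN-negative nuclei and Pfkfb3 was not called there. Each reads 5′ to 3′ along the gene's own strand, with capitals for the matches on either strand.
Pfkfb2, chr1:130715822-130716071, minus strand: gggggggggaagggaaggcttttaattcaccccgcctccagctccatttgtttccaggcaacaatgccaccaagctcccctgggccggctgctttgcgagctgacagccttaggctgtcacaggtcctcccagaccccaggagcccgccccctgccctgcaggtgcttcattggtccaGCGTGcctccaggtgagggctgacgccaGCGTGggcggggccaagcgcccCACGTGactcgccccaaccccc
Pfkfb3, chr2:11502091-11502340, minus strand: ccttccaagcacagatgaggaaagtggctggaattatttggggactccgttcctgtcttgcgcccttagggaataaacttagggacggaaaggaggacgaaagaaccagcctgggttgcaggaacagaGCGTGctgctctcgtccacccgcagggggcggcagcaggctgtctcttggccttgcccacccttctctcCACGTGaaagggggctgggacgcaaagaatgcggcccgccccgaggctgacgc
Pfkfb3, chr2:11553930-11554179, minus strand: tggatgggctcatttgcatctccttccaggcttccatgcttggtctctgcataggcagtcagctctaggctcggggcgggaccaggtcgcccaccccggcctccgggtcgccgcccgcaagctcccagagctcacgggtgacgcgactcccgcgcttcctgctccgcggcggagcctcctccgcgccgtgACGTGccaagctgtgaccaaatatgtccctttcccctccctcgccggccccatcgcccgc
Pfkfb4, chr9:108991652-108991901, plus strand: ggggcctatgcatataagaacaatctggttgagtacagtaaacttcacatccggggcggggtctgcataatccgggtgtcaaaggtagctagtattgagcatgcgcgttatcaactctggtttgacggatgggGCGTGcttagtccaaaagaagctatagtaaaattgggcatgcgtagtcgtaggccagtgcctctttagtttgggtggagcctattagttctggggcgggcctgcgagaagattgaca
The Pfkfb2 window shown held 2 matches to ACGTG and 2 to GCGTG. It was picked for its matches, so its count cannot be set against the shares of all windows. The Pfkfb2 window at chr1:130714577-130714826 held 1 and 0, and that at chr1:130716049-130716298 held 0 and 1. The Pfkfb3 window at the downstream start held 2 and 1, and the one at the upstream start 1 and 0. The Pfkfb4 window held 0 matches to ACGTG and 1 to GCGTG. The single Tigar window held 0 matches to either, and of the 4 Pfkfb1 windows 1 held a single GCGTG. A match describes letters in these windows and shows no binding.

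Pfkfb3, the isoform with the strongest kinase bias, did not pass the test with EAE in either sort. It was lower in neuronal than in non-neuronal nuclei of healthy mice. In NeuN-positive nuclei its level was 69.3, 32.4, 64.0, 40.4 and 56.3 CPM in EAE libraries 1 to 5, against 61.6, 56.0, 47.0, 60.7 and 73.9 CPM in healthy libraries 1 to 5. In NeuN-negative nuclei it was 147, 33.0, 117, 37.5 and 73.6 CPM in EAE, against 107, 110.1, 65.9, 99.6 and 119 CPM in healthy libraries. The EAE NeuN-negative libraries spread more widely than any other group, with EAE 1 above and EAE 2 and EAE 4 below every healthy library. The log2 fold change with EAE was -0.09 ± 0.21 (SE) in NeuN-positive nuclei, with a 95% interval of -0.54 to 0.36 (edgeR quasi-likelihood test, Benjamini-Hochberg adjusted p = 0.809). In NeuN-negative nuclei it was -0.05 ± 0.33, with an interval of -0.74 to 0.63 (edgeR, adjusted p = 0.916). These intervals leave room for changes of up to the bounds given, in either direction. Without the 6 libraries both values turned positive and remained uncalled, at 0.13 ± 0.18 (edgeR, adjusted p = 0.664) in NeuN-positive and 0.29 ± 0.24 (adjusted p = 0.379) in NeuN-negative nuclei.

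Between the sorts, Pfkfb3 averaged 59.9 ± 9.75 CPM in NeuN-positive and 100.4 ± 20.5 CPM in NeuN-negative nuclei of healthy mice (mean ± SD, n = 5 each). It fell by 0.78 on the log2 scale in NeuN-positive nuclei (SE 0.16, edgeR, adjusted p = 0.00155), and was lower there in 5 of 5 same-numbered pairs. In EAE it averaged 52.5 ± 15.7 CPM in NeuN-positive and 81.5 ± 49.6 CPM in NeuN-negative nuclei and was lower in 4 of 5 pairs. The log2 fold change was -0.78 ± 0.35 (edgeR, adjusted p = 0.103), and with the replicate number as a block it was -0.70 ± 0.22 and called (adjusted p = 0.0257). Without the 6 libraries it was -0.93 ± 0.25 and called (adjusted p = 0.0133), as it was without the EAE NeuN-negative library 2 alone (-0.95, adjusted p = 0.0449). Ordered by mean CPM, the groups ran from EAE NeuN-positive through healthy NeuN-positive and EAE NeuN-negative to healthy NeuN-negative, and the ranges of each neighbouring pair in this order overlapped.

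**Figure D1:**
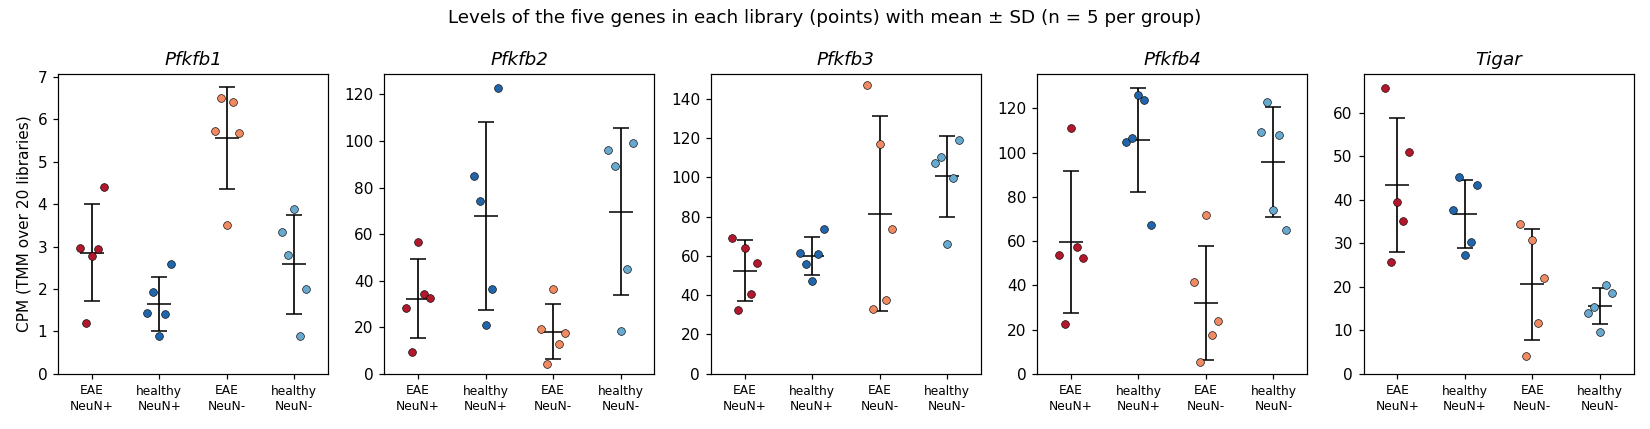
Level of each gene in CPM (TMM over 20 libraries, linear axes from 0, a separate axis per gene) in each library; points are libraries 1 to 5 from left to right within a group, and bars are mean ± SD (n = 5). Pfkfb2 and Pfkfb4 are low in EAE NeuN-negative libraries, Tigar in healthy mice lies between 27.4 and 45.2 CPM in NeuN-positive nuclei and between 9.69 and 20.5 CPM in NeuN-negative nuclei, and Pfkfb1 stays under 7 CPM.

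Pfkfb2, the isoform known from heart whose kinase is activated by phosphorylation in its C-terminal tail, was lower in EAE than in healthy NeuN-negative nuclei. Its level there was 19.4, 4.33, 36.6, 12.8 and 17.6 CPM in EAE, against 96.1, 89.4, 18.5, 45.1 and 99.3 CPM in healthy libraries. The groups overlapped, because healthy 3 lay below EAE 1 and EAE 3, while 3 of 5 EAE libraries lay below every healthy one. This amounted to a log2 fold change of -1.63 ± 0.44 (edgeR, adjusted p = 0.0122), and without the 6 libraries it was -1.48 ± 0.33 (adjusted p = 0.00550). With the log2 of the mitochondrial share of each library as a covariate it was -0.23 ± 0.44 and was not called (adjusted p = 0.867). That share went with EAE, at 2.18 to 14.6% in EAE and 0.367 to 4.51% in healthy NeuN-negative libraries. The covariate fits therefore cannot fully tell EAE and the share apart.

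In NeuN-positive nuclei Pfkfb2 was at 28.5, 9.55, 56.8, 34.2 and 32.6 CPM in EAE, against 84.98, 74.2, 20.98, 36.2 and 123 CPM in healthy libraries. The healthy libraries ranged widely, and healthy 3 lay below 4 of 5 EAE libraries. The log2 fold change of -0.96 ± 0.42 did not pass the test (edgeR, adjusted p = 0.151), and with the mitochondrial covariate it was 0.13 ± 0.40 (adjusted p = 0.895). Between the sorts of healthy mice it averaged 67.8 ± 40.5 CPM in NeuN-positive and 69.7 ± 36.0 CPM in NeuN-negative nuclei, with a log2 fold change of -0.06 ± 0.46 and a 95% interval of -1.06 to 0.94 (edgeR, adjusted p = 0.933). With the mitochondrial covariate it was -0.79 ± 0.30 and called (adjusted p = 0.0408). In EAE it averaged 32.3 ± 16.8 CPM in NeuN-positive and 18.1 ± 11.8 CPM in NeuN-negative nuclei and was higher in NeuN-positive nuclei in 5 of 5 pairs. The log2 fold change was 0.65 ± 0.44 (edgeR, adjusted p = 0.275), and 0.68 ± 0.24 with the replicate block, where it was called (adjusted p = 0.0482). Mean CPM was lowest in EAE NeuN-negative, then EAE NeuN-positive, healthy NeuN-positive and healthy NeuN-negative nuclei, and neighbours in this order overlapped.

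Pfkfb4, the isoform first known from testis and a hypoxia-induced gene in several tissues, was also lower in EAE than in healthy NeuN-negative nuclei. Its level there was 41.7, 5.14, 71.9, 17.6 and 23.7 CPM in EAE, against 109, 123, 73.9, 108 and 65.1 CPM in healthy libraries. Here 4 of 5 EAE libraries lay below every healthy library, and EAE 3 lay above healthy 5. Pfkfb4 thus had a log2 fold change of -1.37 ± 0.43 (edgeR, adjusted p = 0.0272). The call rests on single libraries: it was lost without EAE NeuN-negative 4 (adjusted p = 0.0897) or 5 (0.0842), and without healthy NeuN-negative 1 (0.0555), 2 (0.0595) or 4 (0.0535), each by the same edgeR test. Without the 6 libraries the value was -0.91 ± 0.34 (adjusted p = 0.0618), and with the mitochondrial covariate -0.66 ± 0.45 (adjusted p = 0.497).

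In NeuN-positive nuclei Pfkfb4 was at 53.9, 22.4, 111, 57.5 and 52.6 CPM in EAE, against 105, 107, 126, 124 and 67.5 CPM in healthy libraries. All EAE libraries but EAE 3 lay below every healthy library. The log2 fold change of -0.79 ± 0.31 did not pass the test (edgeR, adjusted p = 0.116), and without EAE NeuN-positive 3 it was -1.06 and called (adjusted p = 0.0258). Without the 6 libraries it was -0.38 ± 0.28 (edgeR, adjusted p = 0.401). In healthy mice Pfkfb4 averaged 106 ± 23.5 CPM in NeuN-positive and 95.8 ± 24.9 CPM in NeuN-negative nuclei, with a log2 fold change of 0.11 ± 0.24 and a 95% interval of -0.40 to 0.62 (edgeR, adjusted p = 0.738). In EAE it averaged 59.5 ± 32.1 CPM in NeuN-positive and 32.0 ± 25.9 CPM in NeuN-negative nuclei and was higher in NeuN-positive nuclei in 5 of 5 pairs. That log2 fold change was 0.75 ± 0.47 (edgeR, adjusted p = 0.236), or 0.91 ± 0.25 with the replicate block, where it was called (adjusted p = 0.0148). Mean CPM was lowest in EAE NeuN-negative, then EAE NeuN-positive, healthy NeuN-negative and healthy NeuN-positive nuclei, and neighbours in this order overlapped.

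Pfkfb1, the isoform known from liver and skeletal muscle, had the lowest mean level of the 5 genes in every group, also per kilobase, with 8 to 77 counts in a library. In NeuN-negative nuclei its level was 5.73, 6.50, 3.52, 6.40 and 5.68 CPM in EAE, against 3.35, 2.79, 3.88, 0.899 and 2.0003 CPM in healthy libraries. In NeuN-positive nuclei it was 2.96, 1.19, 2.79, 2.94 and 4.41 CPM in EAE, against 1.44, 1.93, 0.891, 1.40 and 2.58 CPM in healthy libraries. In each sort 4 of 5 EAE libraries lay above every healthy one, and 1 did not. Neither difference passed the test, at a log2 fold change of 1.47 ± 0.59 in NeuN-negative (edgeR, adjusted p = 0.0710) and 0.91 ± 0.47 in NeuN-positive nuclei (adjusted p = 0.221). The NeuN-negative difference was called without healthy NeuN-negative 3 (adjusted p = 0.0407), without the 6 libraries (adjusted p = 0.0464) and by the DESeq2 Wald test (adjusted p = 0.0160). Between the sorts the log2 fold change was -0.72 ± 0.46 in healthy mice (edgeR, adjusted p = 0.225) and -1.25 ± 0.61 in EAE (adjusted p = 0.128), and in EAE it was lower in NeuN-positive nuclei in 5 of 5 pairs. Mean CPM was highest in EAE NeuN-negative nuclei, with 4 of its 5 libraries above every library of the other groups, and the other groups overlapped one another.

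Tigar, the phosphatase that acts against the PFKFB kinases, was higher in neuronal than in non-neuronal nuclei of healthy mice. Its level was 37.6, 45.2, 27.4, 30.3 and 43.5 CPM in healthy NeuN-positive libraries, against 14.1, 15.4, 9.69, 20.5 and 18.6 CPM in healthy NeuN-negative libraries. These groups did not overlap, and the log2 fold change was 1.19 ± 0.22 (edgeR, adjusted p = 0.000754). In EAE it was 65.8, 25.7, 39.4, 35.2 and 51.1 CPM in NeuN-positive nuclei, against 34.5, 4.06, 30.7, 11.6 and 21.9 CPM in NeuN-negative nuclei. These groups overlapped, but within each number the NeuN-positive library was higher in 5 of 5 pairs. Tigar had a log2 fold change of 0.93 ± 0.40 in EAE (edgeR, adjusted p = 0.0855), and 1.06 ± 0.29 with the replicate block, where it was called (adjusted p = 0.0150).

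With EAE, Tigar averaged 43.4 ± 15.5 CPM against 36.8 ± 7.83 CPM in healthy NeuN-positive nuclei, a log2 fold change of 0.35 ± 0.25 that did not pass the test (edgeR, adjusted p = 0.359). In NeuN-negative nuclei it averaged 20.5 ± 12.8 CPM in EAE against 15.7 ± 4.18 CPM in healthy mice, a log2 fold change of 0.64 ± 0.39 (edgeR, adjusted p = 0.221). EAE 1, 3 and 5 lay above every healthy NeuN-negative library, and EAE 2, at 15 Tigar counts, lay below all of them. Without the 6 libraries the NeuN-negative value was 1.01 ± 0.27 and called (adjusted p = 0.0143). Mean CPM was lowest in healthy NeuN-negative, then EAE NeuN-negative, healthy NeuN-positive and EAE NeuN-positive nuclei, with overlap between neighbours.

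**Figure D2:**
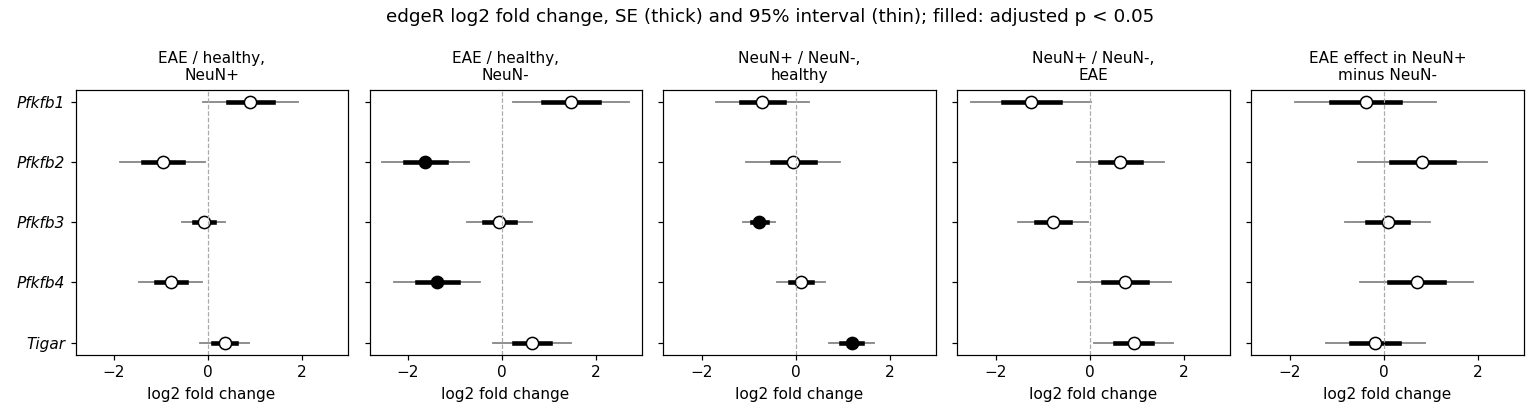
Log2 fold change of each gene (x axis) in the 5 comparisons, from edgeR fits on all genes; thick lines are ± 1 SE, thin lines the 95% interval, and filled points have an adjusted p under 0.05. Filled points are Pfkfb2 and Pfkfb4 with EAE in NeuN-negative nuclei, both below 0, and Pfkfb3 (below 0) and Tigar (above 0) between the sorts of healthy mice.

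Counted together, 0 of 5 genes were called with EAE in NeuN-positive nuclei, where 6.55% of 16675 genes tested were called higher and 3.68% lower. At an unadjusted p under 0.05 there were 2, Pfkfb2 and Pfkfb4, and the DESeq2 Wald test also called 0. In NeuN-negative nuclei 0 were called higher with EAE and 2 lower, beside 15.1% higher and 12.6% lower of 17604 genes. Without the 6 libraries 2 were called higher, Pfkfb1 and Tigar, and 1 lower, Pfkfb2, beside 17.4% higher and 12.3% lower of all genes. The DESeq2 Wald test called 1 higher, Pfkfb1, and 2 lower, beside 3638 higher and 2617 lower of the 17604 genes. In healthy mice 1 was called higher and 1 lower in NeuN-positive than NeuN-negative nuclei, beside 22.8% and 23% of 17134 genes. In EAE the same comparison called 0, beside 15.5% and 14.8% of 17982 genes. There 2 genes, Pfkfb3 and Tigar, had an unadjusted p under 0.05, and the DESeq2 Wald test called 2, Pfkfb1 and Pfkfb3, both lower, beside 16.4% of all genes higher and 22.6% lower by that test. With the replicate block it was 4, with Pfkfb2, Pfkfb4 and Tigar higher and Pfkfb3 lower, beside 20% of all genes higher and 17.8% lower in that fit.

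Whether the EAE effect differed between the sorts was tested as an interaction over all 20 libraries, where 1.74% of 20444 genes were called higher and 0.822% lower. None of the 5 genes was called, 0 had an unadjusted p under 0.05, and the DESeq2 Wald test called 0. The difference (NeuN-positive minus NeuN-negative effect, log2) was 0.82 ± 0.67 for Pfkfb2 (edgeR, adjusted p = 0.550) and 0.70 ± 0.58 for Pfkfb4 (adjusted p = 0.556). It was 0.09 ± 0.44 for Pfkfb3, -0.18 ± 0.51 for Tigar and -0.38 ± 0.74 for Pfkfb1. With the replicate block, which called 9.74% of all genes higher and 2.45% lower, Pfkfb2 was called at 0.90 ± 0.27 (edgeR, adjusted p = 0.0364) and Pfkfb4 was at 0.92 ± 0.32 (adjusted p = 0.0734). The calls of Pfkfb2 and Pfkfb4 in NeuN-negative nuclei alone thus do not by themselves show an effect particular to that sort.

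Cell type markers moved with EAE in the same libraries. Of markers tested in NeuN-negative nuclei, 7 of 12 oligodendrocyte, 6 of 8 oligodendrocyte precursor and 4 of 12 astrocyte genes were called lower in EAE. All 12 monocyte and macrophage, 7 of 7 neutrophil and 12 of 12 T cell markers tested were called higher, and 3 of the 12 microglia markers were called higher with 1 called lower. Of 16 neuron markers 1 was called lower, and of 12 endothelial markers 1 higher. Over all genes 15.1% were called higher and 12.6% lower there. In NeuN-positive nuclei 11 of 12 monocyte and macrophage, 5 of 6 neutrophil, 7 of 8 T cell and 6 of 11 microglia markers tested were called higher, and 2 of 16 neuron markers lower. Of 12 oligodendrocyte markers 2 were called higher and 0 lower, and of 12 astrocyte markers 2 higher and 1 lower. Of 8 precursor markers 1 was lower, and of 12 endothelial markers 1 was higher. These stand beside 6.55% of all genes higher and 3.68% lower. The summed CPM of the 12 monocyte and macrophage markers was 367 to 1918 in EAE and 26.7 to 59.3 in healthy NeuN-positive libraries, and 745 to 3042 in EAE and 90.9 to 155 in healthy NeuN-negative libraries. The summed CPM of the 12 oligodendrocyte markers was 33390 to 94710 in EAE and 41250 to 67570 in healthy NeuN-negative libraries, so the group ranges overlapped. In NeuN-positive libraries it was 11240 to 92610 in EAE and 3939 to 44300 in healthy mice, with medians of 14500 and 5155. The highest value of each NeuN-positive group thus lay within the NeuN-negative range of the same condition. Rbfox3 was the gene used to check the sort, and its purity was not tested. The neutrophil marker Cxcr2 was at 0 in all healthy NeuN-positive libraries, and no other marker was at 0 throughout a group. The part of these shifts in the levels of the 5 genes was not tested.

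The mitochondrial share moved with the genes as well. The library with the highest mitochondrial share of its group had the lowest CPM of that group for Pfkfb2, Pfkfb3 and Tigar in 4 of 4 groups, and for Pfkfb1 and Pfkfb4 in 2 of 4. In EAE NeuN-negative library 2, with 14.6% mitochondrial counts, Pfkfb2 was at 4.33 CPM, Pfkfb4 at 5.14 CPM and Tigar at 4.06 CPM, from 16, 19 and 15 counts. Pfkfb1 was the highest of its group in that library, at 6.50 CPM. The share ran higher in EAE than in healthy libraries of both sorts, with overlapping ranges. The covariate fits named above therefore cannot fully tell its part in the EAE differences from that of EAE, and no other test of it was made.

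**Figure D3:**
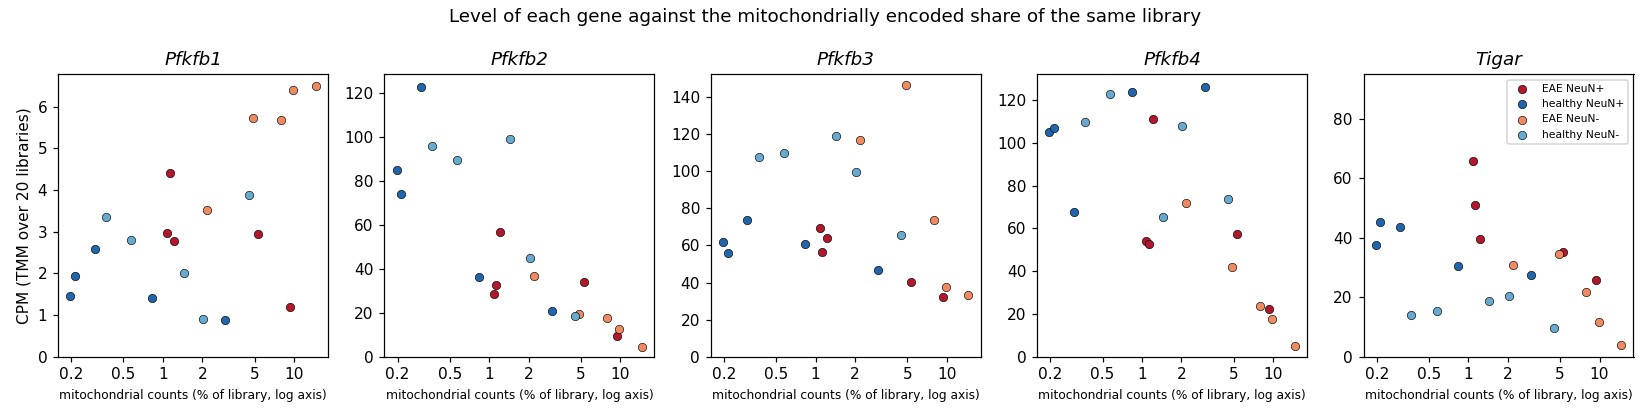
CPM of each gene (linear y axis from 0, separate per gene) against the percentage of mitochondrially encoded counts in the same library (log x axis), for 20 libraries coloured by group. The libraries with the highest mitochondrial share of each group lie lowest in their group for Pfkfb2, Pfkfb3 and Tigar.

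Levels of the isoforms were compared per kilobase of joined exons, and each isoform's share of the summed family level was taken per library. The shares are descriptions and carry no test. Per kilobase, Pfkfb4 was the most abundant isoform in 3 groups, at 12.2 ± 6.59 CPM per kb in EAE and 21.7 ± 4.82 in healthy NeuN-positive nuclei, and 19.7 ± 5.11 in healthy NeuN-negative nuclei. In EAE NeuN-negative nuclei it was at 6.57 ± 5.32 CPM per kb and Pfkfb3 led with 10.8 ± 6.56 CPM per kb. These orders are of means. In healthy NeuN-positive library 5 Pfkfb2 led, at 16.9 against 13.8 CPM per kb for Pfkfb4. In healthy NeuN-negative library 5 Pfkfb3 led, at 15.8 against 13.3 CPM per kb for Pfkfb4. The order of means also depends on the scaling by length. As shares of counts without length, Pfkfb3 led in healthy NeuN-negative nuclei, at 37.9% against 36.7% for Pfkfb4, and the 2 were close in EAE NeuN-positive nuclei, at 38.0% for Pfkfb3 and 39.0% for Pfkfb4. Tigar stood at 11.9 ± 4.23 CPM per kb in EAE NeuN-positive, 10.1 ± 2.14 in healthy NeuN-positive, 5.62 ± 3.49 in EAE NeuN-negative and 4.28 ± 1.14 in healthy NeuN-negative nuclei.

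Pfkfb3 took a larger share of the family in EAE than in healthy NeuN-negative nuclei, although its own level did not differ beyond the test. Its share was 51.0 ± 8.50% in EAE against 31.1 ± 3.56% in healthy NeuN-negative nuclei, and the ranges of 41.6 to 60.5% and 27.6 to 36.4% did not overlap. In NeuN-positive nuclei it was 30.8 ± 8.35% in EAE against 20.03 ± 2.36% in healthy mice, with overlapping ranges of 21.3 to 40.8% and 17.7 to 23.7%. In both conditions the Pfkfb3 share was lower in NeuN-positive than NeuN-negative nuclei with no overlap. Pfkfb4 showed the opposite order, with 48.6 ± 5.93% in EAE and 55.8 ± 15.2% in healthy NeuN-positive nuclei, against 27.6 ± 9.69% in EAE and 46.2 ± 9.65% in healthy NeuN-negative nuclei. Its EAE ranges of 43.8 to 57.3% in NeuN-positive and 13.8 to 40.9% in NeuN-negative nuclei did not overlap, while the healthy ranges did. Because shares sum to 100% in a library, a lower share of one isoform raises the others.

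Pfkfb2 held 17.5 ± 3.37% of the family in EAE and 23.2 ± 13.0% in healthy NeuN-positive nuclei. It held 11.6 ± 3.27% in EAE and 21.1 ± 8.91% in healthy NeuN-negative nuclei, with overlap in both sorts. Pfkfb1 held 3.08 ± 1.03% in EAE against 1.03 ± 0.360% in healthy NeuN-positive nuclei, with separate ranges of 1.74 to 4.61% and 0.630 to 1.56%. In NeuN-negative nuclei it held 9.81 ± 7.58% in EAE against 1.63 ± 1.13% in healthy mice, with overlap. The Pfkfb1 shares rest on few counts.

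**Figure D4:**
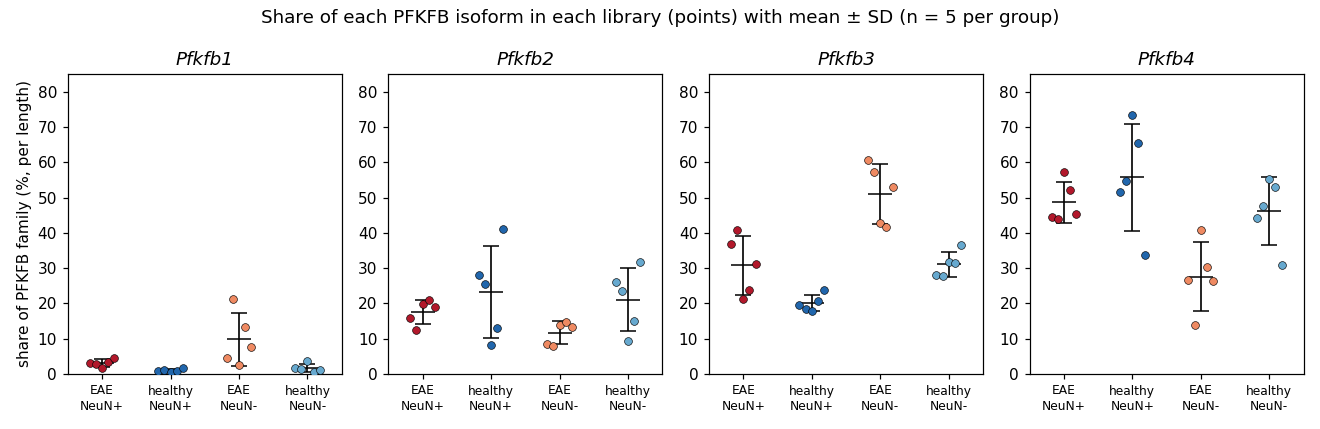
Share of each PFKFB isoform in the summed family level per library (percent, counts per length of joined exons, same axis from 0 in all panels); points are libraries 1 to 5 from left to right and bars mean ± SD (n = 5). The Pfkfb3 shares of EAE NeuN-negative libraries, 41.6 to 60.5%, lie above those of healthy NeuN-negative libraries, 27.6 to 36.4%.

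The summed PFKFB level per kilobase was 24.3 ± 10.4 in EAE against 39.4 ± 2.61 CPM per kb in healthy NeuN-positive nuclei. In NeuN-negative nuclei it was 21.2 ± 12.4 in EAE against 43.2 ± 10.004 CPM per kb in healthy mice. Set against Tigar in the same library, the family level was 2.12 ± 0.953 times Tigar in EAE and 4.03 ± 0.672 times in healthy NeuN-positive nuclei, with overlapping ranges of 1.38 to 3.69 and 3.24 to 4.69. In NeuN-negative nuclei it was 4.29 ± 1.52 times Tigar in EAE and 10.4 ± 2.47 times in healthy mice, and the ranges of 3.08 to 6.88 and 7.46 to 13.2 did not overlap. Library depth and the mitochondrial share differ between these groups, and their part in the ratio was not tested.

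Phosphofructokinase-1, the enzyme that fructose-2,6-bisphosphate activates, has a liver (Pfkl), a muscle (Pfkm) and a platelet (Pfkp) subunit. In EAE NeuN-negative nuclei Pfkl was higher, at 221 ± 118 CPM in EAE against 100.3 ± 21.9 CPM in healthy mice, a log2 fold change of 1.35 ± 0.38 (edgeR, adjusted p = 0.0156). Pfkm was lower, at 75.2 ± 40.6 CPM in EAE against 193 ± 47.6 CPM in healthy mice, a log2 fold change of -1.09 ± 0.34 (adjusted p = 0.0263). In NeuN-positive nuclei 0 of the 3 was called with EAE, and Pfkp was at 256 ± 128 CPM in EAE against 465 ± 86.8 CPM in healthy mice (log2 fold change -0.79 ± 0.27, adjusted p = 0.0786). All 3 were called higher in NeuN-positive than NeuN-negative nuclei of healthy mice, by 2.01 for Pfkl, 1.84 for Pfkp and 1.15 for Pfkm on the log2 scale. In EAE Pfkm was called higher by 2.21 and Pfkp by 1.39. The reverse enzymes, fructose-1,6-bisphosphatases Fbp1 and Fbp2, averaged 3.33 ± 4.91 and 0.823 ± 0.219 CPM in EAE NeuN-negative nuclei. With all libraries they did not pass the count filter in any of these comparisons of 2 groups. Without the 6 libraries, 4 of the 5 genes named here were tested with EAE in NeuN-negative nuclei. Of these, 2 were called higher and 1 lower, beside 17.4% and 12.3% of all genes.

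Genes of the surrounding pathways are given by log2 fold change from the same edgeR fits. The counts called stand beside these shares of all genes. With EAE they were 6.55% higher and 3.68% lower in NeuN-positive, and 15.1% and 12.6% in NeuN-negative nuclei. In NeuN-positive against NeuN-negative nuclei they were 22.8% and 23% in healthy mice, and 15.5% and 14.8% in EAE. Of the other glycolysis genes, 4 of 27 tested were called higher and 2 lower with EAE in NeuN-positive nuclei, with a median log2 fold change of 0.13 beside -0.03 over all genes. Hexokinases Hk3 and Hk2, which start glycolysis, were higher by 4.19 and 3.69, while the enolase Eno1, among those called lower, was at -0.89. In NeuN-negative nuclei 5 of 28 were called higher and 2 lower, with a median of 0.20 beside 0.05 over all genes. There lactate dehydrogenase A (Ldha) was higher by 2.29, at 104 ± 39.5 CPM in EAE against 26.7 ± 11.9 CPM in healthy mice, and Hk3 by 3.45. Eno3 and Bpgm were lower there, at -1.54 and -0.89. Against NeuN-negative nuclei, 7 of 27 were higher and 9 lower in healthy NeuN-positive nuclei, with the neuronal enolase Eno2 among the higher and Hk2 and Hk3 among the lower. In EAE 4 of 28 were higher and 7 lower, again with Eno2 among the higher and Hk2 and Hk3 among the lower. Hk2 averaged 11.4 CPM in EAE and 0.939 CPM in healthy NeuN-positive nuclei, and 57.1 CPM in EAE and 13.9 CPM in healthy NeuN-negative nuclei, and Hk3 averaged 20.7, 1.17, 140.5 and 14.7 CPM in the same groups. The median summed CPM of the 12 microglia markers in these groups was 282, 43.6, 1690 and 810.5, and that of the 12 monocyte and macrophage markers 505, 35.2, 1303 and 136. Hk2 thus had the group order of the microglia markers and Hk3 that of the monocyte and macrophage markers, and the part of these cells in their levels was not tested.

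Of the pentose phosphate enzymes, the pathway that Tigar is known to favour, 0 of 8 were called with EAE in NeuN-positive nuclei. In NeuN-negative nuclei 1 of 8, the endoplasmic hexose-6-phosphate dehydrogenase H6pd, was higher by 2.26 (edgeR, adjusted p = 0.000151), and 0 were lower. In healthy mice 2 of 8 were higher (H6pd and Rpia) and 3 lower in NeuN-positive than NeuN-negative nuclei, among them transaldolase Taldo1 at -2.39 and transketolase Tkt at -1.06. In EAE 1 of 10 was higher, Rpia, and 2 lower, Taldo1 and Tktl1.

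The ubiquitin ligases known to mark PFKFB3 protein for the proteasome were followed through 20 genes of the APC/C and SCF complexes. With EAE 0 were called higher and 1 lower in NeuN-positive nuclei, the APC/C subunit Cdc23 at -1.76. In NeuN-negative nuclei 0 were higher and 6 lower, among them the APC/C subunits Anapc1 at -1.04 and Cdc16 at -1.32, with a list median of -0.46 beside 0.05 over all genes. Fzr1, which encodes Cdh1, the activator that brings APC/C to PFKFB3, was at 118 ± 8.39 CPM in NeuN-positive and 84.1 ± 15.0 CPM in NeuN-negative nuclei of healthy mice, higher by 0.45 (edgeR, adjusted p = 0.0323). In EAE it was at 146 ± 18.5 CPM in NeuN-positive and 49.2 ± 23.2 CPM in NeuN-negative nuclei, higher by 1.39 (adjusted p = 0.00445). In all, 1 of 20 was higher and 3 lower in NeuN-positive nuclei of healthy mice, and 2 higher and 0 lower in EAE. With the replicate block these counts were 3 higher and 4 lower in healthy mice, beside 33.2% and 32.5% of all genes. In EAE they were 5 higher and 0 lower, beside 20% and 17.8% of all genes.

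The hypoxia list joins genes induced by hypoxia, a known inducer of Pfkfb3 and Pfkfb4, with HIF pathway parts such as Vhl and Arnt. With EAE in NeuN-positive nuclei 1 of 20 was called higher and 0 lower, the HIF ubiquitin ligase subunit Vhl at 1.11. In NeuN-negative nuclei 2 of 21 were higher, carbonic anhydrase Car9 at 3.73 and the prolyl hydroxylase Egln3 at 1.44. A further 2 were lower, the growth factor Vegfa at -1.98 and the HIF partner Arnt at -1.19. In NeuN-positive against NeuN-negative nuclei, 1 was higher (P4ha2) and 9 lower of 20 in healthy mice, and 1 higher (P4ha2) and 5 lower of 21 in EAE. Hif3a was lowest on this scale in both, at -3.55 in healthy mice and -3.22 in EAE.

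Among p53 pathway genes, the regulator first tied to TIGAR, 0 of 17 were called with EAE in NeuN-positive nuclei. In NeuN-negative nuclei 1 of 17 was higher, Btg2 at 1.46, and 1 lower, Trp53 itself at -1.47. In healthy mice 3 of 17 were higher, led by Sesn2 at 1.47 and Zmat3 at 1.202, and 7 lower in NeuN-positive nuclei, with the cell cycle inhibitor Cdkn1a at -1.94. In EAE 1 of 18 was higher, Zmat3, and 4 were lower, Cdkn1a among them.

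Of kinases known to phosphorylate PFKFB proteins (AMPK, PKA, AKT and related genes), 1 of 18 was higher and 0 lower with EAE in NeuN-positive nuclei, Mapkapk2 at 0.81. In NeuN-negative nuclei Mapkapk2 was higher by 1.42 and 3 of 18 were lower, with the AMPK subunit Prkab2 at -0.88 and the PKA catalytic subunit Prkacb at -1.17. In healthy mice 7 of 18 were higher in NeuN-positive nuclei, led by the PKA regulatory subunit Prkar1b at 1.97, and 1 was lower, Prkag3. In EAE 5 of 18 were higher, Prkar1b and the AMPK subunit Prkag2 with the smallest p, and 0 lower. The medians of this list with EAE were -0.19 in NeuN-positive and -0.23 in NeuN-negative nuclei.

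The median log2 fold changes with EAE in NeuN-positive nuclei, beside -0.03 over all genes, were 0.34 (pentose phosphate), -0.23 (ubiquitin ligases), 0.20 (hypoxia) and -0.16 (p53). In NeuN-negative nuclei, beside 0.05 over all genes, those lists had medians of 0.03, -0.46, -0.09 and 0.16. In NeuN-negative nuclei without the 6 libraries, the counts with EAE were 4 higher and 0 lower for pentose phosphate genes, 0 and 6 for ubiquitin ligases, 5 and 2 for hypoxia genes, 3 and 2 for p53 genes, and 1 and 3 for kinases, beside 17.4% of all genes higher and 12.3% lower in that fit. Between the sorts, the replicate block moved the kinases called in healthy mice to 10 higher and 3 lower, against 7 and 1 without it. The block moved the hypoxia genes called in EAE to 3 higher and 6 lower, against 1 and 5. In the blocked fits 33.2% of all genes were higher and 32.5% lower in healthy mice, and 20% and 17.8% in EAE. Leaving out single libraries, the number of ubiquitin ligase genes called with EAE ran from 0 to 6 in NeuN-positive and from 2 to 7 in NeuN-negative nuclei, and that of kinases from 0 to 4 and from 1 to 4. Of the 5 genes of the fructose phosphate step (the phosphofructokinase-1 subunits with Fbp1 and Fbp2), 0 to 2 were called in NeuN-negative nuclei in the same way. The 0 was without healthy NeuN-negative 2, where neither Pfkl nor Pfkm was called.

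Across the 20 libraries, the log2 CPM of Pfkfb2 and Pfkfb4 had the highest correlation between members (Pearson r = 0.788), and Pfkfb1 and Pfkfb4 the lowest (r = -0.593). Pfkfb3 and Tigar were at r = 0.16. The libraries share their group, depth and mitochondrial share, so these values describe the set of libraries and carry no p. Among 13227 genes whose log2 CPM averaged 1 or more, the closest to Pfkfb2 were Tbp (r = 0.964), Arnt (r = 0.962) and Nfrkb (r = 0.959). The closest to Pfkfb4 were Fkbp8 (r = 0.986), Scap (r = 0.983) and Dele1 (r = 0.983), and to Pfkfb3 Ivns1abp (r = 0.954), Ldb1 (r = 0.937) and Zfand6 (r = 0.925). Tigar was closest to Rcc2 (r = 0.959), Slc25a39 (r = 0.946) and Asb13 (r = 0.946). Pfkfb1 was closest to Glis3 (r = 0.822), Tpx2 (r = 0.819) and Gpr65 (r = 0.809), with lower values than the other members at its low counts.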

How the data were processed

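Nuclear RNA of 20 sorted spinal cord samples was sequenced after polyA enrichment, per the labels' protocols. The authors deposited a count table of raw counts, with a row per Ensembl gene; STAR 2.4, DESeq2, GRCm39 and mm10 are named per the submitters' processing notes, with no roles. The counting tool is, like strand use, not given in the sources used here. Of 43629 genes, 42462 carried a symbol. Groups came from titles. Each comparison used edgeR 4.0.16 in R 4.3.3 on its own 10 libraries (the interaction on all 20) with filterByExpr, TMM, a robust quasi-likelihood fit and Benjamini-Hochberg adjustment over all genes tested. A gene was called at an adjusted p under 0.05. CPM values were scaled by TMM over all 20 libraries and all genes, while each fold change was scaled within its own fit. Ratios of mean CPM can therefore differ from the fold changes printed beside them, as for Tigar and Pfkfb3 with EAE in NeuN-negative nuclei. The script was tested on simulated data. The members, gene lists and alternatives were chosen with earlier results of these data known. Genes named beside the members are the 5 of the fructose phosphate step, at most the 2 higher and 2 lower called genes of smallest p in each list, and the 3 closest by correlation.

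Alternatives were DESeq2 1.42.0 (size factors, Wald test), other count filters, a fit on all 20 libraries, the replicate block, leaving out each library, leaving out the 6 libraries of the numbers whose NeuN-positive library held over 2% mitochondrial counts, that share as a covariate, and removing Gm10800, Gm10801 and mitochondrial genes. Shares were also taken without length and with the longest transcript. Same-numbered libraries of the 2 sorts deviated together, at r = 0.118 to 0.389 in EAE and 0.282 to 0.703 in healthy mice. These were 5 pairs each, all over the limit of 0.1. Libraries of different numbers also passed that limit, with r up to 0.203 in EAE and 0.325 in healthy mice, so the ranges overlapped. The highest r was with the library's own number for 5 of 5 in EAE and 4 of 5 in healthy mice. The replicate block rests on this pairing, which the labels do not state. The fits reported first carry no block, and the blocked value stands beside a result where it changes the call. No 2 libraries of a group were identical over the 40 pairs compared (chi-square per gene 11.1 to 392.8). For 1 further gene, counted in the total of its list, no value of its own is reported here.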

Additional observations from a re-analysis of the deposited data

Results flagged for a closer look

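In EAE NeuN-negative nuclei, Pfkfb1 in library 3 was at 3.52 CPM, below the other 4 libraries at 5.68 to 6.50 CPM. Its gap to the nearest library was 0.725 of the group's range, over the limit of 0.71 for 5 samples by Dixon's criterion. This was the single value marked among 36 groups of values examined, and chance marks about 1 in 20.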

How the results depend on the processing

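All values in this paragraph are from edgeR unless another tool is named, and the cause of each change was not tested. Same-numbered libraries of the sorts were paired by the replicate block, which called 4 of the 5 genes between the sorts in EAE and 1 in the interaction, where it called 2492 genes against 524 without it; it changed no other call of the 5 genes. With the block across EAE and healthy mice, whose numbers did not pair (r = -0.331 to 0.215 in NeuN-positive and -0.342 to 0.274 in NeuN-negative nuclei), Pfkfb2 and Pfkfb4 were still the 2 genes called in NeuN-negative nuclei. Genes called with EAE in NeuN-positive nuclei were 1705, against 2993 by the DESeq2 Wald test and 694 with the mitochondrial covariate. In NeuN-negative nuclei they were 4870, against 8635 with no count filter and 1454 with the covariate, where 0 of the 5 genes was called. The interaction had 524, against 1511 by the DESeq2 Wald test, 268 with no filter and 1092 with the covariate. With DESeq2 size factors its calls split 236 higher and 236 lower, against 356 and 168, as the median of all genes moved to -0.11 from 0.15. Between the sorts in EAE 0 of the 5 genes was called, against 2 by the DESeq2 Wald test, 1 in the fit on all 20 libraries (Tigar), and 1 (Pfkfb3) without the 6 libraries numbered EAE 2, EAE 4 and healthy 3 or with the covariate. Over all genes, the fit on all 20 libraries called 3545 higher and 3492 lower of 20444. It was 3787 and 3768 of 18111 without the 6 libraries, and 2108 and 2017 of 17982 with the covariate.

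Some directions turned. With the covariate, Pfkfb2 was 0.13 with EAE in NeuN-positive nuclei (-0.96 without it) and -0.016 between the sorts in EAE (0.65 without it), and Pfkfb3 was 0.15 and 0.49 with EAE in NeuN-positive and NeuN-negative nuclei. Without the 6 libraries, Pfkfb3 was 0.13 and 0.29 in the same comparisons and -0.21 in the interaction, and Pfkfb4 was -0.049 between the healthy sorts. The Pfkfb3 interaction was -0.12 with DESeq2 size factors and -0.13 by the Wald test. Shares from counts without length were 2.02% (Pfkfb1), 20.97% (Pfkfb2) and 39.0% (Pfkfb4) in EAE NeuN-positive nuclei, and for Pfkfb3 25.4% in healthy NeuN-positive, 59.7% in EAE NeuN-negative and 37.9% in healthy NeuN-negative nuclei.

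Leaving out each library in turn, the genes called of the 5 were 0 to 1 and 1 to 3 with EAE in NeuN-positive and NeuN-negative nuclei, and 0 to 1 between the sorts in EAE. Beside these, 3306 to 6501 of all genes were called with EAE in NeuN-negative nuclei, of 17990 to 19299 tested. Between the sorts in EAE it was 3933 to 6719, of 18448 to 19463 tested. All genes called with EAE in NeuN-positive nuclei ran from 878 (without healthy 2) to 3124 (without EAE 3), and in the interaction from 93 (without healthy NeuN-negative 2) to 1033 (without EAE NeuN-negative 3). Pfkfb3 ran from -0.20 to 5.54e-05 with EAE in NeuN-positive nuclei, from -0.33 to 0.11 in NeuN-negative nuclei and from -0.17 to 0.41 in the interaction. Between the healthy sorts Pfkfb2 ran from -0.39 to 0.14 and Pfkfb4 from -0.045 to 0.24, and the Tigar interaction ran from -0.50 to 0.090. Pfkfb1 had the lowest mean level, with 8 to 77 counts in a library, and the part of depth in its results was not tested. In data simulated with a negative binomial dispersion of 0.1 for every gene, 27 of 100 genes changed by 1 on the log2 scale were recovered. That was for EAE in NeuN-negative nuclei, against 100 of 100 changed by 2. The spread of the real libraries was not matched, such as 32.0 ± 25.9 CPM (mean ± SD) for Pfkfb4 in EAE NeuN-negative nuclei. These rates therefore do not carry over to the tests above.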
